A study of Sus scrofa with 24 samples.

Results

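The respiratory chain of pig muscle mitochondria is described here through 71 genes, taken from the 9443 gene symbols of the deposited table by name alone. Complex I holds 32 symbols that start with NDUF, complex II 3 (SDHA, SDHB and SDHD), complex III 5 (CYC1 and symbols that start with UQCR), complex IV 22 symbols of COX followed by a digit, and complex V 9 symbols that start with ATP5. By role, 51 were grouped as subunits encoded in the nucleus and 14 as assembly factors. Another 3 are catalytic core subunits of complex IV encoded in mitochondrial DNA (COX1, COX2 and COX3). NDUFA4L2, COX7A2L and ATP5S were placed in none of these groups. All 71 passed the filter on low values.

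Complexes I and II take electrons from NADH and succinate and pass them to ubiquinone, complex III passes them on to cytochrome c, and complex IV gives them to oxygen. Complexes I, III and IV pump protons across the inner mitochondrial membrane, and complex V, the ATP synthase, lets them flow back to make ATP. Fibres of skeletal muscle that burn fat by oxidation carry more of this machinery than fast fibres that live on glycolysis, and several subunits exist in a muscle form and a general form.

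The samples were longissimus dorsi, a muscle along the spine, taken from 24 Duroc × Luchuan F1 pigs, 12 with high and 12 with low intramuscular fat (IMF). They came from a population of 265 F1 animals bred from 8 Duroc boars and 112 Luchuan sows. All were fed alike on 1 farm, were killed at 210 ± 6 days of age, and gave muscle 25 minutes after death for libraries of polyA RNA read as pairs of 150 bases. The fat content, sex and litter of each animal are not used here, so IMF class is the sole group label, and animals are numbered within a class in accession order. Each library is 1 animal, but the labels do not say which animals share parents, and p-values take them as independent. Within a class 3 pairs share the first 9 digits of their identifiers (high IMF animals 4 and 8, low IMF animals 2 and 8, and low IMF animals 6 and 7).

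Values are FPKM, fragments per kilobase of transcript scaled to the size of the library, summed over the transcripts listed under a symbol. They are given as mean ± SD over 12 animals per class unless stated. The FPKM of a library summed to between 351119 and 415572, and its depth, inferred from the steps between low values, lay between 32.9 and 40.8 M reads. The muscle label was checked against 10 markers. The actin gene ACTA1 was abundant, with 21138 ± 7005 FPKM in high and 27725 ± 7213 FPKM in low IMF muscle, while the myoglobin gene MB, also a defining marker, was listed near 0, at 0.408 ± 0.317 and 0.628 ± 0.693 FPKM. The share of the 10 top genes in all FPKM was 26.8 ± 2.56% in high against 29.4 ± 3.79% in low IMF muscle. High IMF animal 7 (20.2%) and low IMF animal 10 (18.6%) stood apart with the lowest shares of their classes. Since FPKM is a share of each library, results are also given after TMM scaling (a trimmed mean of log ratios), which divided libraries by factors between 0.937 and 1.20 in high and between 0.823 and 1.34 in low IMF animals.

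No respiratory chain gene passed the test over all genes, while most lay slightly higher in high IMF muscle. The limma fit on log2(FPKM + 1) over 11702 genes called 0 of 71 members at an adjusted p under 0.05 in either direction, against 0.0427% of all genes higher and 0.00855% lower. At an unadjusted p under 0.05, 22 members were higher and 0 lower in high IMF, against 6.79% of all genes higher and 0.906% lower. A positive log2 fold change was seen in 64 of 71 members, against 73.4% of all genes, and the median was 0.17 in the members and 0.077 in all genes. With TMM scaling 53 members were positive, against 50% of all genes, 6 were higher and 0 lower at an unadjusted p under 0.05, against 2.83% and 2.3% of all genes, and the median was 0.061 in the members and 0.000047 in all genes. The 6 were UQCRQ, COX7A2, COX7C, COX10, SDHD and NDUFS3. No member passed when adjusted with TMM scaling, against 0.0342% of all genes higher and 0.0171% lower. A p not called adjusted is unadjusted. In none of the 71 did the ranges of the 2 classes stand apart: every member has animals of one class within the range of the other. The share of all genes whose ranges stand apart was not counted.

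**Figure D1:**
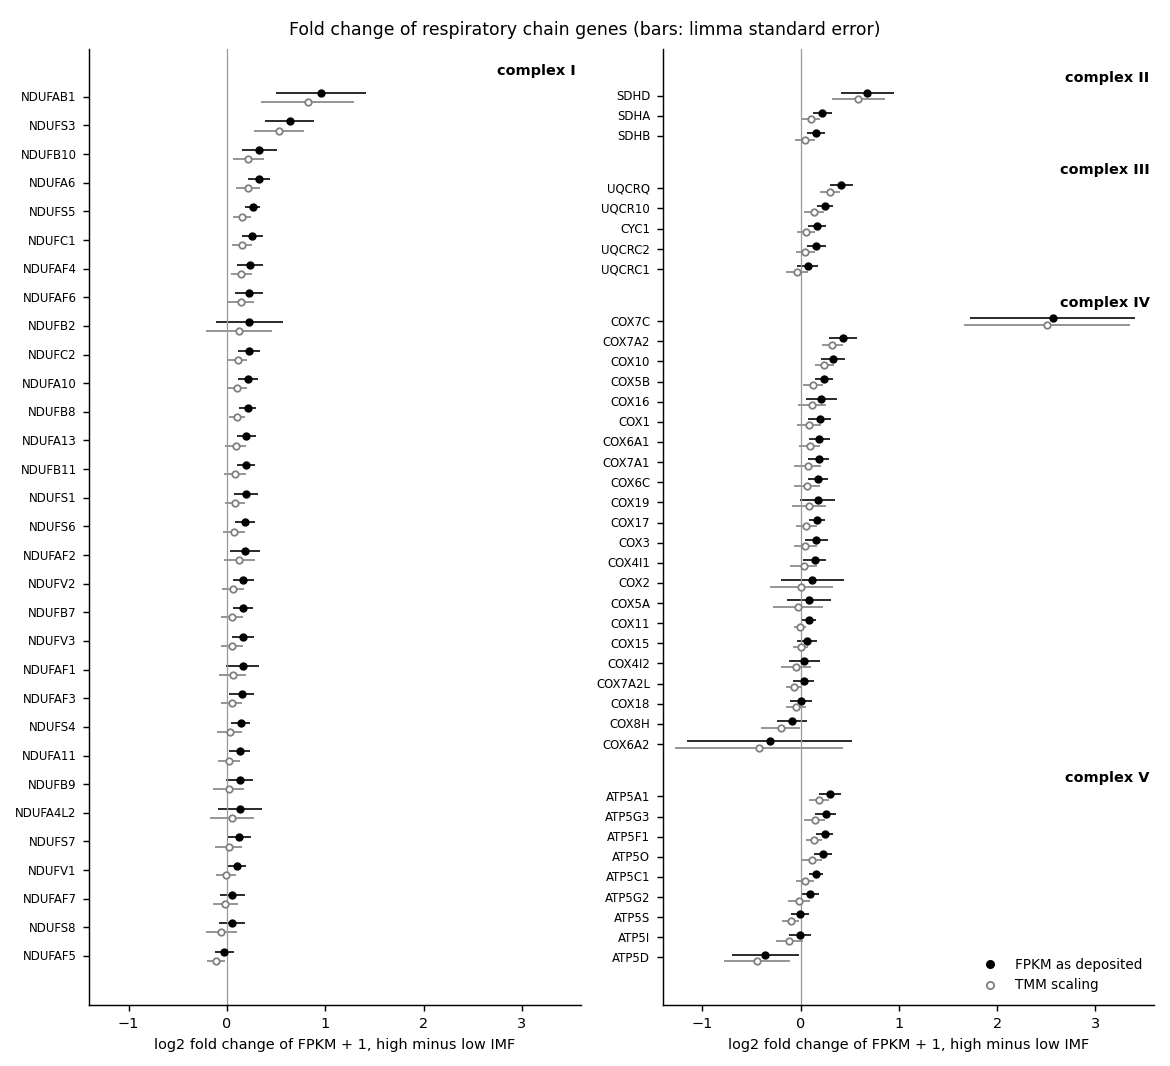
Log2 fold change of FPKM + 1, high minus low IMF, for respiratory chain genes, grouped by complex; filled points are FPKM as deposited, open points are TMM scaled, and bars are limma standard errors. Most filled points lie to the right of 0 and the open points lie further left, with medians over all 71 members of 0.17 and 0.061, while COX7C (2.56) and COX6A2 (-0.31) stand out with the widest bars.

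By role, 21 of the 51 nuclear subunits had an unadjusted p under 0.05 and a positive fold change, against 6.79% of all genes, with a median of 0.19 over the 51. Among the 14 assembly factors COX10 alone did, 7.14% of them and thus a share near that of all genes, with a median of 0.16. The 3 core subunits of mitochondrial DNA were all positive, against 73.4% of all genes, with a median of 0.16, and none had an unadjusted p under 0.05. With TMM scaling 5 nuclear subunits and 1 assembly factor were at an unadjusted p under 0.05, against 2.83% of all genes, and the medians were 0.075, 0.057 and 0.050.

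Summed over its listed subunits, each complex was somewhat more abundant in high IMF muscle on the deposited scale. The 24 nuclear subunits of complex I summed to 1574 ± 188 FPKM in high and 1392.5 ± 184 FPKM in low IMF muscle, a difference of 13.05%. The 3 subunits of complex II summed to 205 ± 22.9 FPKM in high and 177 ± 28.9 FPKM in low IMF muscle (15.7%), and the 5 of complex III to 654 ± 84.9 and 551 ± 70.5 FPKM (18.7%). These sums overlap between the classes, and 10, 10 and 11 of the 12 high IMF animals exceeded the median of low IMF in complexes I, II and III.

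The 11 nuclear subunits of complex IV summed to 1184 ± 187 FPKM in high and 1079 ± 196 FPKM in low IMF muscle (9.70%), and 8 of 12 high IMF animals exceeded the median of low IMF. The 8 subunits of complex V summed to 1169.5 ± 124 and 1029 ± 115 FPKM (13.7%), with 9 of 12 above that median. COX1, COX2 and COX3 together had 16394 ± 3420.1 FPKM in high and 14584 ± 3025 FPKM in low IMF muscle (12.4%), far above all 51 nuclear subunits together at 4786 ± 551 and 4229 ± 508 FPKM. Complex III thus had the widest and complex IV the narrowest relative difference, but the sums carry no test here. They hold only what is listed under a member symbol. Subunits such as SDHC, ATP5B and ATP5G1, with means of 31.4, 277 and 171 FPKM, are left out. With unnamed transcripts at the members' loci added, the differences were 12.9%, 15.7%, 17.7%, 8.42% and 13.8% in complexes I to V.

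With TMM scaling the differences shrank to 3.98% in complex I, 6.34% in complex II, 9.35% in complex III, 4.77% in complex V and 4.36% in COX1 to COX3, and complex IV turned to -0.125%. In this bulk RNA, more mitochondria-rich cells and more RNA per cell cannot be told apart. Markers of other cells and of fibre types were summed as well. The 9 adipocyte markers summed to 118.6 ± 41.3 FPKM in high and 63.1 ± 31.4 FPKM in low IMF muscle. Of the 9, 8 were positive at an unadjusted p under 0.05, against 6.79% of all genes. LEP alone passed when adjusted (limma adjusted p = 0.00692), and with TMM scaling LEP and ADIPOQ did (adjusted p = 0.0107 and 0.0355). The 10 fast fibre markers in the table, 3 of them positive, summed to 18747 ± 5846.5 and 20365 ± 3881 FPKM, with the fast light chain gene MYLPF lower at an unadjusted p (log2 fold change -0.46, limma p = 0.0118). The 10 skeletal muscle markers, 3 of them positive, summed to 35919 ± 8340.5 and 40919 ± 7928 FPKM, with the titin gene TTN lower at an unadjusted p (-0.96, p = 0.0111), and the 10 slow fibre markers, 5 positive, to 4713 ± 1339 and 4843.5 ± 2039 FPKM. Beside these 3, 3 and 5 positive markers, 73.4% of all genes were positive on the deposited scale. No high IMF animal reached the ACTA1 median of low IMF, 30337 FPKM. Its log2 fold change was -0.59 (limma p = 0.136, adjusted p = 0.723). The other way went CKM (0.33, p = 0.320), with 10 of 12 high IMF animals above the median of low IMF, and TNNT3 (0.32, p = 0.163). The 6 endothelial markers summed to 45.7 ± 11.5 FPKM in high and 39.99 ± 9.95 FPKM in low IMF muscle, the 3 blood markers to 76.6 ± 56.8 and 40.9 ± 23.7 FPKM, and the 3 smooth muscle markers to 103 ± 47.5 and 105 ± 23.6 FPKM. The part of these in the respiratory chain values was not tested.

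**Figure D2:**
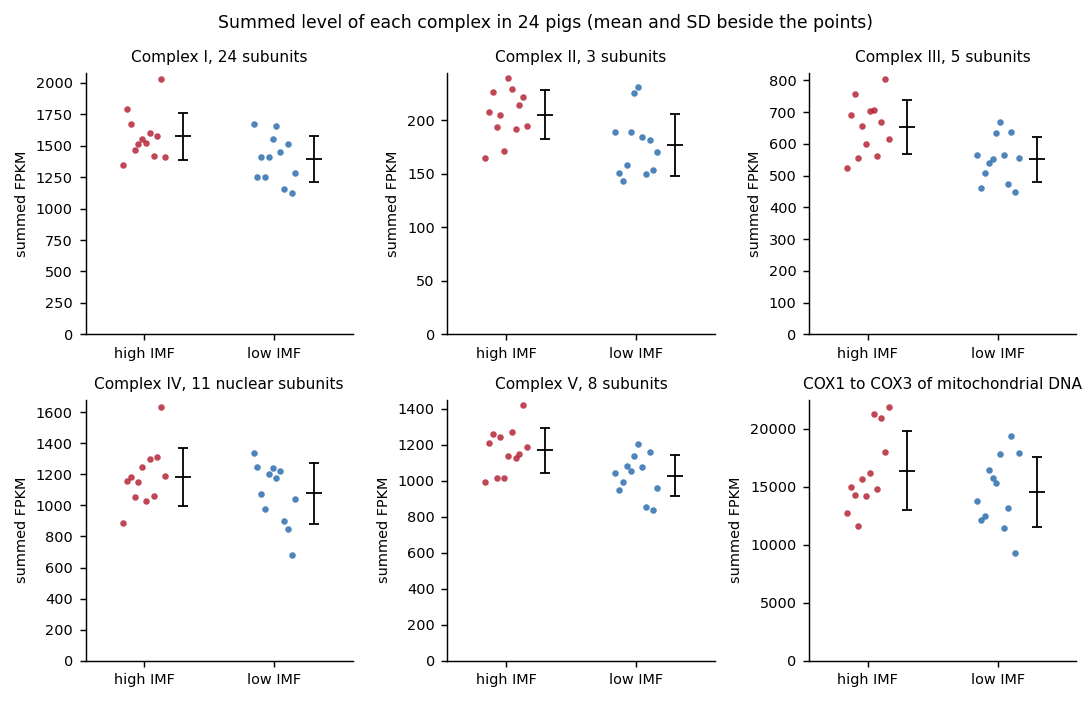
Summed FPKM of the nuclear subunits of each complex, and of COX1 to COX3, in each of 12 high IMF pigs (left) and 12 low IMF pigs (right); bars give mean and SD. The classes overlap in every panel, and in complexes I, III, IV and V the highest point is high IMF animal 11 (2029 FPKM in complex I) and the lowest is low IMF animal 11 (1126 FPKM).

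High IMF animal 11 had the highest sum in complexes I, III, IV and V and low IMF animal 11 the lowest, while complex II was highest in high IMF animal 7 and lowest in low IMF animal 3. With TMM scaling complex II was highest in low IMF animal 6, and complexes II and IV were lowest in low IMF animal 10. High IMF animal 11 had the highest value of all 24 animals in 27 of the 51 nuclear subunits, and its subunits summed to 6112 FPKM. The lowest value was that of low IMF animal 11 in 12 subunits and of low IMF animal 9 in 11, with sums of 3247 and 3531 FPKM. In all, the highest animal was a high IMF animal for 44 subunits and a low IMF animal for 7, and the lowest was a high IMF animal for 7 and a low IMF animal for 44. With TMM scaling the highest animal was a high IMF animal for 34 subunits and a low IMF animal for 17. Such counts were not made over all genes, of which 73.4% were positive on the deposited scale. Whether they are particular to the chain was thus not tested. The same animals recur in them. Among the 24 animals, the median rank of the 51 subunits was 24 (highest) in high IMF animal 11 and 3 in low IMF animals 9 and 11. Without high IMF animal 11, 16 members were higher at an unadjusted p under 0.05.

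The first 4 digits of the animals' identifiers take 2 values and split them into a lower-numbered and a higher-numbered set of 6 high and 6 low IMF animals each; the sources do not say what the digits stand for. Within the lower-numbered set, 62 of 71 members were positive, against 77.3% of all genes, 9 were higher at an unadjusted p under 0.05 and 1 was lower, against 8.16% and 0.624% of all genes. Within the higher-numbered set, 61 were positive, against 56.2% of all genes, 9 were higher and 0 lower, against 2.23% and 1.15% of all genes. In both sets 53 of the 71 members were positive. The share of all genes positive in both sets was not computed, so this count has no baseline. The summed subunits differed by 6.58% in the lower-numbered and by 20.5% in the higher-numbered set, and for complex IV the difference was -2.94% and 25.1%. The limma interaction of set and class called 0 members at an adjusted p under 0.05, against 0% of all genes, and 4 at an unadjusted p under 0.05, against 3.29% of all genes: NDUFA4L2, NDUFB9, COX6A1 and COX19. NDUFA4L2, a paralog of NDUFA4, had log2 fold changes of -0.43 and 0.68 in the lower-numbered and the higher-numbered set (interaction p = 0.00954, adjusted p = 0.998, limma), and COX6A1 had 0.41 and -0.026 (interaction p = 0.0396, adjusted p = 0.998).

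Complex I, the entry point for electrons of NADH, had 30 of 32 positive members, against 73.4% of all genes. At an unadjusted p under 0.05, 9 of its members were higher, all of them subunits, against 6.79% of all genes. Split by role after the values were seen, 6 of the 7 core subunits that bind its cofactors or line the ubiquinone path were positive with a median of 0.13, and 1 had an unadjusted p under 0.05. All 17 accessory subunits were positive, from 0.13 to 0.95 with a median of 0.21, and 8 had an unadjusted p under 0.05. The top of that range is NDUFAB1, which moved to 0.21 (p = 0.0509) when an unnamed transcript at its locus was added. Scaled by TMM, complex I had 27 positive members, against 50% of all genes. NDUFS3 alone then had an unadjusted p under 0.05, 3.1% of the members and thus a share near the 2.83% of all genes.

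NDUFS5, an accessory subunit on the intermembrane side, is annotated on chromosome 6 from 94912685 to 94919457 of Sscrofa11.1. Its lowest, median and highest values were 93.3, 120.4 and 146 FPKM in high IMF animals, against 80.6, 103 and 120.0 FPKM in low IMF animals. High IMF animals were the higher class, with 7 of them above every low IMF animal and no low IMF animal above the high IMF median. The limma fit gave a log2 fold change of 0.26 (SE 0.0799, limma p = 0.00307, adjusted p = 0.356), and 0.15 with TMM scaling (p = 0.116). Nearly all of it came from 1 transcript of 3 exons and 519 bases, which held 99.6% of the FPKM.

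NDUFA6, an accessory subunit that binds the acyl carrier protein, lies on chromosome 5. It ranged over 28.0, 44.0 and 58.3 FPKM (lowest, median, highest) in high IMF animals, against 22.9, 34.7 and 41.1 FPKM in low IMF animals. No low IMF animal reached the high IMF median, and the ranges overlapped. Its log2 fold change was 0.32 (SE 0.111, limma p = 0.00762, adjusted p = 0.472), and 0.21 with TMM scaling (p = 0.0859). NDUFB8, an accessory subunit of the membrane arm, averaged 79.9 ± 11.9 FPKM in high and 68.6 ± 8.21 FPKM in low IMF muscle (log2 fold change 0.21, SE 0.0857, limma p = 0.0202, adjusted p = 0.563). With TMM scaling its fold change was 0.10 (p = 0.243).

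NDUFS3, a core subunit of the arm that reaches into the matrix, had 24.8, 33.4 and 44.0 FPKM in high IMF animals, against 4.63, 27.0 and 36.3 FPKM in low IMF animals. The low end came from low IMF animals 9 and 8, at 4.63 and 6.20 FPKM, while the other low IMF animals had at least 20.3 FPKM. On the log2 scale the fold change was 0.64 (SE 0.249, limma p = 0.0165, adjusted p = 0.547), 0.46 without low IMF animal 9 and 0.49 without low IMF animal 8. NDUFB9 was the most abundant subunit of the complex, at 279.6 ± 59.4 FPKM in high and 258 ± 67.5 FPKM in low IMF muscle, and NDUFC1 the least abundant subunit, at 20.7 ± 2.47 and 17.4 ± 4.02 FPKM. The assembly factor NDUFAF2 had the lowest mean of all complex I members, at 1.65 ± 0.498 and 1.38 ± 0.639 FPKM (log2 fold change 0.19, p = 0.244).

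Complex II, succinate dehydrogenase, belongs to the citric acid cycle as well as to the chain. All of its 3 listed subunits were positive, against 73.4% of all genes. Of these 2 were higher at an unadjusted p under 0.05, against 6.79% of all genes. With TMM scaling all 3 were positive and SDHD alone had such a p, against 50% and 2.83% of all genes. SDHA, its flavoprotein, had 109.9, 135 and 157 FPKM (lowest, median, highest) in high IMF animals, against 85.1, 111 and 159 FPKM in low IMF animals. The medians differed while the upper ends met, and 10 of 12 high IMF animals exceeded the median of low IMF. The log2 fold change was 0.22 (SE 0.0958, limma p = 0.0307, adjusted p = 0.612), and 0.11 with TMM scaling (p = 0.234). SDHB, its iron-sulphur subunit, averaged 66.0 ± 8.89 FPKM in high and 59.1 ± 8.31 FPKM in low IMF muscle (log2 fold change 0.16, limma p = 0.0861).

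SDHD, which anchors the enzyme in the membrane, was listed at a far lower level than its partners. It had 2.29, 3.03 and 16.4 FPKM in high IMF animals, against 1.996, 2.26 and 6.59 FPKM in low IMF animals. High IMF animals 3, 7 and 12 stood apart at 13.8 to 16.4 FPKM, as did animal 4 in the low IMF class, and all 12 high IMF animals exceeded the median of low IMF. The limma fit gave a log2 fold change of 0.68 (SE 0.270, limma p = 0.0189, adjusted p = 0.563), and 0.59 with TMM scaling (p = 0.0382). Among all members and animals its coefficient of variation, 97.4%, was the highest.

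Complex III, which hands electrons from ubiquinol to cytochrome c, had 5 of 5 members positive, against 73.4% of all genes. Its 2 small subunits UQCRQ and UQCR10 were higher at an unadjusted p under 0.05, against 6.79% of all genes. With TMM scaling 4 members were positive and UQCRQ alone had such a p, against 50% and 2.83% of all genes. UQCRQ lies on chromosome 2 from 135186454 to 135188293 and had the smallest p of all 71 genes on the deposited scale. It had 143, 211 and 248 FPKM (lowest, median, highest) in high IMF animals, against 103, 142 and 207 FPKM in low IMF animals. All 12 high IMF animals exceeded the median of low IMF, 6 of them above every low IMF animal, and 7 low IMF animals lay below every high IMF animal. Its log2 fold change was 0.41 (SE 0.117, limma p = 0.00159, adjusted p = 0.274), and 0.30 with TMM scaling (p = 0.00692, adjusted p = 0.611).

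UQCRQ was listed with 4 transcripts, and the pattern was shared by the abundant ones. The assembled isoform with 56.6% of its FPKM had a log2 fold change of 0.42 (limma p = 0.000743, adjusted p = 0.352 over all transcripts), and the isoform with 27.9% had 0.49 (p = 0.00409, adjusted p = 0.509). The reference transcripts, with 9.86% and 5.62%, had 0.24 and 0.23 and an unadjusted p of 0.0888 and 0.0932. SDHD and UQCRQ were the only members with all 12 high IMF animals above the median of low IMF, against 1.67% of all genes, and 9 members had at least 11, against 6.77% of all genes.

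UQCR10, the other small subunit, lies on chromosome 14 and had 108, 129.7 and 166 FPKM in high IMF animals, against 85.1, 113 and 124 FPKM in low IMF animals. No low IMF animal lay above the high IMF median, and 7 high IMF animals lay above every low IMF animal. On the log2 scale the fold change was 0.25 (SE 0.0832, limma p = 0.00628, adjusted p = 0.453), and 0.14 with TMM scaling (p = 0.173). CYC1, the cytochrome c1 that passes the electron on, was the most abundant member of the complex, at 197 ± 29.5 FPKM in high and 175 ± 24.8 FPKM in low IMF muscle (log2 fold change 0.16, limma p = 0.0796). Of the core proteins, UQCRC2 had 65.6 ± 11.4 and 58.2 ± 7.96 FPKM (0.16, p = 0.118), and UQCRC1 had 60.8 ± 11.15 and 57.3 ± 8.47 FPKM (0.075, p = 0.493, and -0.036 with TMM scaling).

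**Figure D3:**
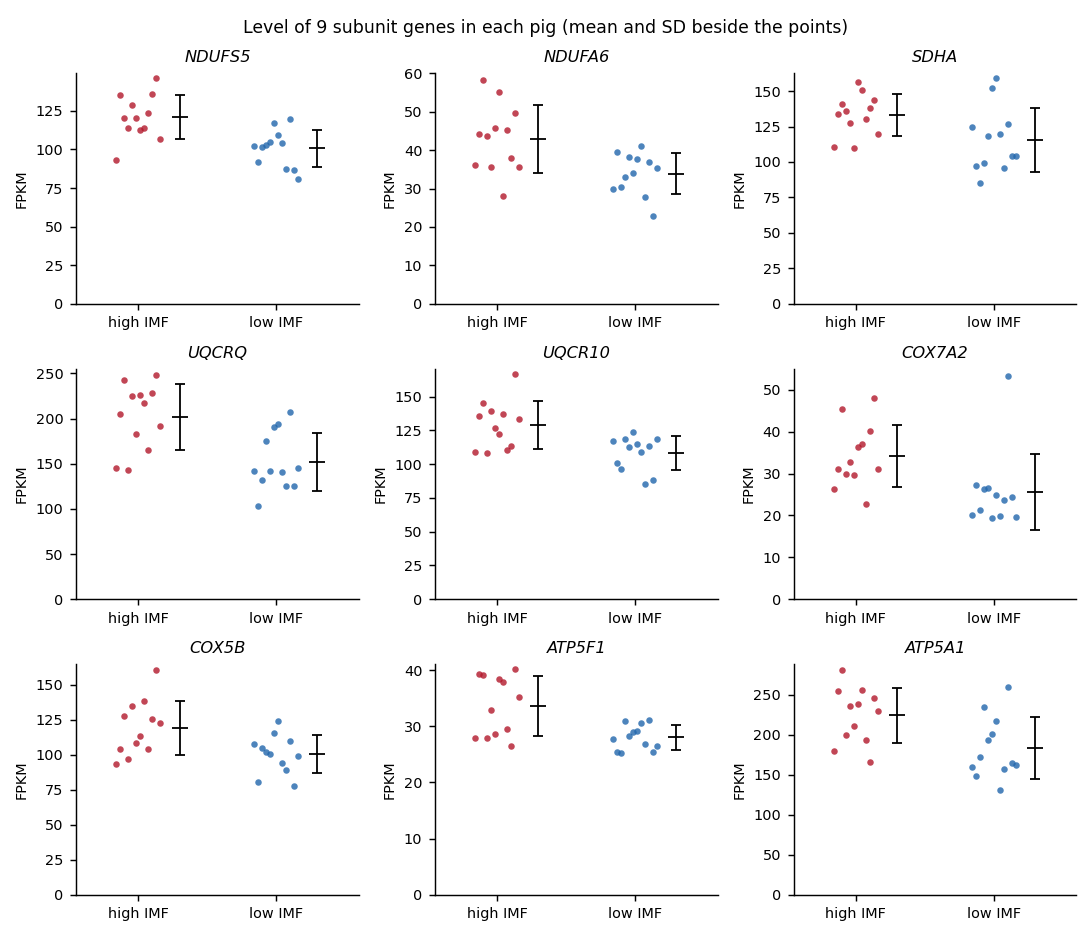
FPKM of 9 subunit genes of complexes I to V in each of 12 high IMF pigs (left) and 12 low IMF pigs (right), with mean and SD. The classes overlap in all 9 genes; in UQCRQ 6 high IMF animals lie above every low IMF animal, and in COX7A2 low IMF animal 10, at 53.2 FPKM, lies above all others.

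Complex IV, cytochrome c oxidase, had 20 of 22 members positive and 4 at an unadjusted p under 0.05, all higher in high IMF, namely COX7A2, COX7C, COX5B and the assembly factor COX10, against 73.4% of all genes positive and 6.79% higher at that p. Scaled by TMM, complex IV had 14 positive members and 3 with such a p, against 50% and 2.83% of all genes. COX7A2, the general form of subunit VIIa, lies on chromosome 1 from 90696751 to 90703485. It had 22.7, 31.9 and 48.1 FPKM (lowest, median, highest) in high IMF animals, against 19.4, 24.2 and 53.2 FPKM in low IMF animals. Low IMF animal 10 held the highest value of all 24, the next low IMF animal had 27.4 FPKM, and 11 of 12 high IMF animals exceeded the median of low IMF. The log2 fold change was 0.43 (SE 0.139, limma p = 0.00478, adjusted p = 0.425), and 0.32 with TMM scaling (p = 0.00642, adjusted p = 0.586). Without low IMF animal 10 it was 0.53, with an adjusted p of 0.0339, the sole adjusted p of any member under 0.05 among the fits that left out 1 animal.

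COX5B, the zinc-binding subunit on the matrix side, ranged over 93.2, 118 and 161 FPKM in high IMF animals, against 77.7, 101 and 125 FPKM in low IMF animals. The classes overlapped over most of their range, and the log2 fold change was 0.24 (SE 0.0930, limma p = 0.0160, adjusted p = 0.547), and 0.13 with TMM scaling (p = 0.215). COX4I1, the general form of subunit IV, was the most abundant nuclear subunit of the chain, at 359.8 ± 61.0 FPKM in high and 329 ± 67.6 FPKM in low IMF muscle (0.14, p = 0.218). COX8H, the muscle form of subunit VIII, was 281 ± 54.0 and 309 ± 93.0 FPKM (-0.091, p = 0.552).

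The core subunits COX1, COX2 and COX3, which hold the haem and copper centres or surround them, are encoded in mitochondrial DNA and were the most abundant members. COX1 had 5397, 6551 and 9440.3 FPKM (lowest, median, highest) in high IMF animals, against 4628, 6241 and 7888 FPKM in low IMF animals (log2 fold change 0.19, limma p = 0.106). COX3 averaged 5621 ± 1040.5 FPKM in high and 5039 ± 1018 FPKM in low IMF muscle (0.16, p = 0.169). COX2 varied more, at 3667 ± 1523 and 3325 ± 1301 FPKM (0.12, p = 0.707): high IMF animals 4 and 5 had 1129 and 865 FPKM, low IMF animals 6 and 11 had 1221 and 807 FPKM, and all others had at least 2738 FPKM. Over the 10 genes of mitochondrial DNA in the table all 10 were positive, against 73.4% of all genes, and 8 with TMM scaling, against 50%. Of these 10 genes 0 had an unadjusted p under 0.05 in either fit. They summed to 25116 ± 4819 FPKM in high and 22524 ± 4863 FPKM in low IMF muscle.

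COX7C, a small subunit of complex IV on chromosome 2 from 94345447 to 94352651, had by far the widest fold change, and its values fell into separate states. It was listed at 0 in high IMF animal 4 and at 55.1 to 82.0 FPKM in the other high IMF animals. In low IMF animals it was listed at 0 in animals 1, 2, 8 and 12, at 2.78 to 7.28 FPKM in animals 3, 4 and 11, and at 46.5 to 58.4 FPKM in the other 5. The log2 fold change of the named transcript was 2.56 (SE 0.838, limma p = 0.00516, adjusted p = 0.430).

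A transcript without a symbol, listed over the same locus, held 23.8 to 42.2 FPKM in high IMF animal 4 and in low IMF animals 1, 2, 4, 8, 11 and 12, where the named one was at 0 or low, and 0 to 3.75 FPKM in all others. Low IMF animal 3 was low in both, at 3.44 FPKM in sum. The sum of both transcripts was 63.2 ± 13.3 FPKM in high and 38.6 ± 15.2 FPKM in low IMF muscle, with a log2 fold change of 0.86 (SE 0.289, limma p = 0.00637, adjusted p = 0.453). With TMM scaling the sum had a fold change of 0.75 (p = 0.0126), and 9 high IMF animals lay above every low IMF animal on the deposited scale. The unnamed transcript has 5961 bases and the named one 3311, so the same reads give fewer FPKM on the unnamed one. The sum thus still depends in part on which transcript was listed in an animal, and the size of that part was not tested. Transcripts were summed by position after the values had been seen; in that fit 21 of the 71 members were higher and 0 lower at an unadjusted p under 0.05, against 6.78% and 0.906% of all genes, with TMM scaling 6 and 0, against 2.83% and 2.29%. No member passed when adjusted, against 0.0427% of all genes higher and 0.00854% lower, and 73.5% of all genes were positive.

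Named and unnamed transcripts also shared other loci. NDUFAB1, the mitochondrial acyl carrier protein, was at 0 and 0.0866 FPKM in low IMF animals 10 and 4 and at 15.6 FPKM or more in all others, while an unnamed transcript at its locus had 116 and 93.4 FPKM there, the highest values among low IMF animals. In sum it had 97.1 ± 15.2 FPKM in high and 84.2 ± 14.5 FPKM in low IMF muscle, and the log2 fold change moved to 0.21 (limma p = 0.0509) in place of 0.95 (p = 0.0472). ATP5D, the delta subunit of the ATP synthase, had 5.35 ± 4.10 and 6.15 ± 2.96 FPKM under its symbol, against 250 ± 34.7 and 219 ± 32.8 FPKM in an unnamed transcript at the locus. Its log2 fold change of -0.36 (p = 0.305) turned to 0.18 (p = 0.0519) in the sum. For NDUFS3 the sum gave 0.60 (p = 0.0116), with low IMF animals 9 and 8 still lowest at 6.96 and 9.78 FPKM.

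**Figure D4:**
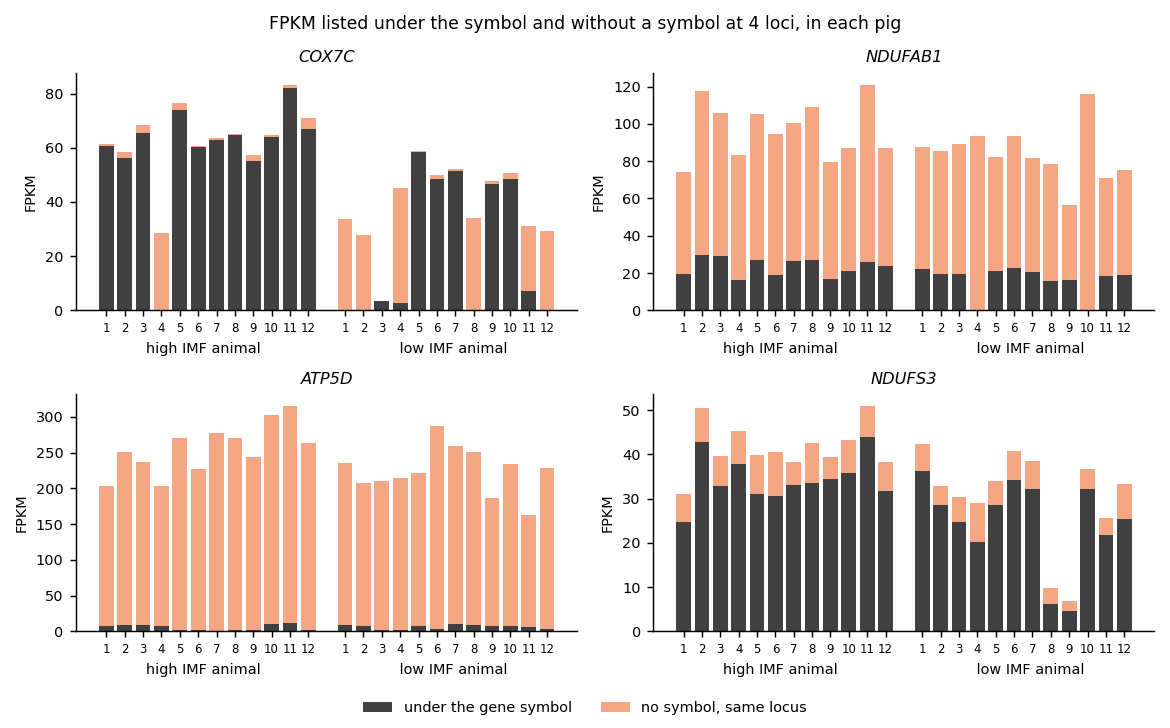
Stacked FPKM in each of 12 high IMF pigs (left) and 12 low IMF pigs (right) for transcripts listed under the symbol (dark) and a transcript without a symbol at the same locus (light), at 4 loci. At COX7C the light part replaces the dark part in high IMF animal 4 and in 6 low IMF animals, at NDUFAB1 in low IMF animals 4 and 10, and at ATP5D the light part holds most of the FPKM in every animal.

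Complex V, the ATP synthase, had 6 of 9 members positive and 5 at an unadjusted p under 0.05, against 73.4% and 6.79% of all genes. With TMM scaling 5 were positive, against 50% of all genes, and 0 had such a p. ATP5F1, subunit b of the stalk that holds the catalytic head, lies on chromosome 4 from 108891718 to 108907099. It had 26.5, 34.1 and 40.3 FPKM (lowest, median, highest) in high IMF animals, against 25.2, 28.0 and 31.1 FPKM in low IMF animals. The low IMF animals kept within a narrow range, and 7 high IMF animals lay above all of them. The limma fit gave a log2 fold change of 0.24 (SE 0.0821, limma p = 0.00632, adjusted p = 0.453), and 0.14 with TMM scaling (p = 0.113).

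ATP5A1, the alpha subunit of the catalytic head, had 166, 233 and 280.4 FPKM in high IMF animals, against 131, 168 and 259.6 FPKM in low IMF animals. The ranges overlapped widely, yet 11 of 12 high IMF animals exceeded the median of low IMF. Its log2 fold change was 0.30 (SE 0.108, limma p = 0.0106, adjusted p = 0.523), and 0.19 with TMM scaling (p = 0.0693). ATP5O, which joins the stalk to the head and is the most abundant listed subunit, had 246 ± 35.9 FPKM in high and 210.3 ± 31.5 FPKM in low IMF muscle (0.23, p = 0.0213, adjusted p = 0.564). ATP5C1, the gamma subunit that turns within the head, had an unadjusted p of 0.0466 with 229 ± 25.9 and 205 ± 20.2 FPKM. ATP5I, subunit e of the membrane part, did not differ in mean beyond its spread, at 77.6 ± 16.4 and 77.8 ± 15.3 FPKM.

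Some subunits are made from alternative genes, and 4 such shares were compared. COX7A1, the muscle form of subunit VIIa, made up 64.6 ± 3.45% of COX7A1 and COX7A2 in high and 68.1 ± 9.74% in low IMF muscle, a difference of -3.50 percentage points (permutation p = 0.261, adjusted p = 0.449 over the 4 shares). The low IMF range of 43.5% to 78.6% enclosed the high IMF range of 56.3% to 69.9%, and low IMF animal 10 held the lowest share. Without high IMF animal 7 and low IMF animal 10 the difference was -5.55 percentage points (permutation p = 0.0176). It was -7.33 percentage points within the lower-numbered set (exact permutation p = 0.0238) and 0.337 within the higher-numbered set (exact permutation p = 0.957).

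COX6A2, the muscle form of subunit VIa, took 66.5 ± 33.4% of COX6A1 and COX6A2 in high and 76.3 ± 26.0% in low IMF muscle (permutation p = 0.435, adjusted p = 0.449). It too had separate states: 1.55 to 9.02 FPKM in high IMF animals 1, 6, 7, 9 and 12, against 110 FPKM or more in the other 7, and 1.36 to 16.3 FPKM in low IMF animals 6, 7, 10 and 11, against 60.8 FPKM or more in the other 8. These states occurred in both classes. Its FPKM was 79.4 ± 67.1 with a median of 111 in high and 69.0 ± 49.0 with a median of 85.7 in low IMF muscle, so the means and medians were higher in high IMF while the log2 fold change was -0.31 (SE 0.837). The span listed under COX6A1 runs over 21759 bases, against 2211 bases in RefSeq, and overlaps TRIAP1, GATC and SRSF9. That under COX6A2 runs over 21748 bases in transcripts of 5, 7 and 8 exons, and its symbol matched no RefSeq gene on that chromosome. Both parts of this share thus rest on transcript models that were not checked. COX4I2 took 1.24 ± 0.265% and 1.34 ± 0.394% of COX4I1 and COX4I2. ATP5G3 took 40.4 ± 5.17% and 37.8 ± 4.95% of the FPKM of ATP5G2 and ATP5G3, which encode the same subunit c of the ring (permutation p = 0.221, adjusted p = 0.449). ATP5G3 alone had 143 ± 24.9 FPKM in high and 120.1 ± 22.9 FPKM in low IMF muscle (limma log2 fold change 0.26, p = 0.0263), and ATP5G2 had 210.4 ± 26.1 and 198 ± 32.6 FPKM (0.096, p = 0.307, and -0.016 with TMM scaling).

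**Figure D5:**
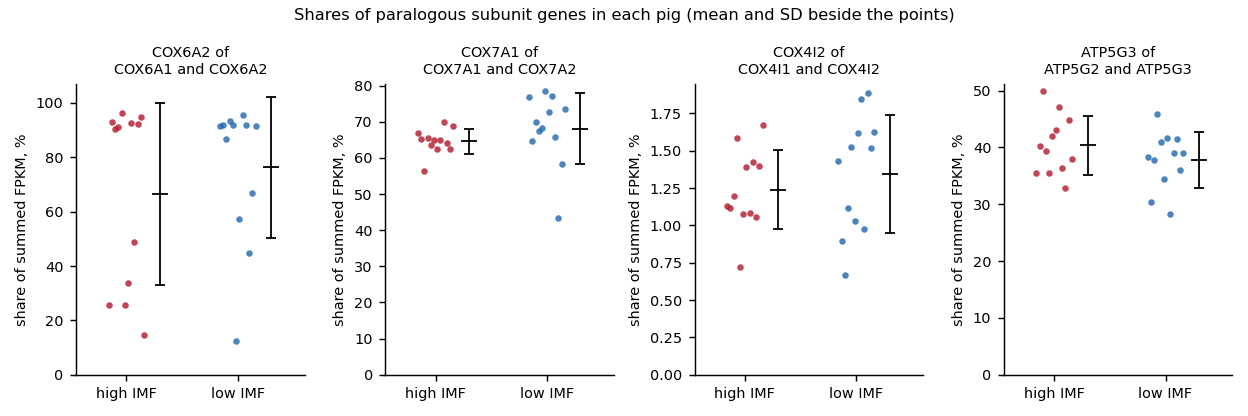
Share of 1 gene in the summed FPKM of a pair that encodes alternative forms of a subunit, in percent, in each of 12 high IMF pigs (left) and 12 low IMF pigs (right), with mean and SD. The classes overlap in all 4 panels; COX6A2 falls into high and low shares in both classes, and low IMF animal 10 has the lowest share of COX7A1, at 43.5%.

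Assembly factors build the complexes without staying in them. COX10, which makes the first step of haem A for complex IV, had 3.72, 5.11 and 7.22 FPKM in high IMF animals, against 2.25, 3.95 and 6.14 FPKM in low IMF animals. The ranges overlapped, with 9 of 12 high IMF animals above the median of low IMF. On the log2 scale the fold change was 0.33 (SE 0.125, limma p = 0.0134, adjusted p = 0.542), and 0.24 with TMM scaling (p = 0.0157). The copper chaperone COX17 was listed at 207 ± 24.3 and 185 ± 25.7 FPKM (0.17, p = 0.0615), far above the other 13, whose means lay between 0.973 FPKM for COX18, which helps insert COX2 into the membrane, and 10.97 FPKM. NDUFAF4 had 5.21 ± 1.28 and 4.29 ± 1.29 FPKM (0.24, p = 0.0828), and NDUFAF5, the only assembly factor below 0, had 3.40 ± 0.816 and 3.44 ± 0.552 FPKM (-0.026, p = 0.795).

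Genes that work beside the chain were read from lists chosen with earlier results known. Of 20 listed electron carriers and partners, 19 were positive, against 73.4% of all genes. Among them 7 had an unadjusted p under 0.05 and a positive fold change, against 6.79% of all genes, and 0 passed when adjusted. With TMM scaling 16 were positive and COQ9 alone had such a p (limma p = 0.0427), against 50% and 2.83% of all genes. COQ10A, which binds coenzyme Q, had 58.3 ± 11.03 FPKM in high and 45.9 ± 9.64 FPKM in low IMF muscle (limma p = 0.00547), COQ9, of its synthesis, had 145 ± 25.7 and 117 ± 22.8 FPKM (p = 0.00984), and the inhibitor of the ATP synthase ATPIF1 had 270.1 ± 44.6 and 227 ± 39.2 FPKM (p = 0.0219). Of 16 regulators of respiratory genes 12 were positive, a share near the 73.4% of all genes. At an unadjusted p under 0.05, 2 were higher (12.5%, against 6.79% of all genes). These were the nuclear receptor ESRRA, at 22.8 ± 9.69 and 15.6 ± 6.12 FPKM (limma p = 0.0453), and TFB1M, which methylates mitochondrial ribosomal RNA, at 1.98 ± 0.331 and 1.65 ± 0.409 FPKM (p = 0.0496). With TMM scaling ESRRA and TFB1M had p = 0.114 and p = 0.122, and 0 regulators were higher at an unadjusted p under 0.05. The 2 then lower at such a p, against 2.3% of all genes, were YY1 (log2 fold change -0.28, p = 0.0157) and GABPB1 (-0.21, p = 0.0286). Of 23 assembly factors under other names 18 were positive and 2 had an unadjusted p under 0.05, shares of 78.3% and 8.70% beside 73.4% and 6.79% of all genes: TMEM126B of complex I at 25.5 ± 4.48 and 21.4 ± 4.34 FPKM (p = 0.0278) and SDHAF1 of complex II at 4.25 ± 1.35 and 3.30 ± 0.763 FPKM (p = 0.0379). With TMM scaling 17 were positive and 0 had such a p.

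At the level of transcripts, the 71 genes had 130, of which 127 passed the filter. In the limma fit over 21405 transcripts, 25 were higher and 0 lower at an unadjusted p under 0.05, against 5.25% and 1.09% of all transcripts, and 0 passed when adjusted, against 0.0187% of all transcripts. With TMM scaling 7 were higher and 0 lower, against 2.78% and 2.26% of all transcripts, and 0 passed when adjusted, against 0.014%. In the comparison of the authors' deposited table, 27 of the 130 transcripts had a p-value under 0.05 with the higher value in high IMF and 0 in low IMF, against 3.84% and 2.55% of its transcripts. The lowest of the 3 kinds of q-value for these transcripts in the authors' deposited table were 0.745, 0.506 and 0.266.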

How the data were processed

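Polyadenylated RNA of 24 muscles was sequenced, and the authors deposited 1 table with an FPKM value per assembled transcript and animal. The build was Sscrofa11.1, and the tools were StringTie 1.3.3 and HISAT2 2.0.5, per the submitters' processing notes; annotation release and use of strand are not stated there. The unit FPKM was taken from the values, and each of the 22154 transcripts is above 0 in at least 19 libraries. The deposited table also holds the authors' fold change, p-value and q-values per transcript; for all 328 transcripts at a p-value under 0.01 the sign of the authors' fold change matched low over high IMF means. Depth was inferred from steps between low values, each step taken as a single base of coverage. Of these values 61.9% to 90% per library were whole steps within 0.05, too few for a count test.

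FPKM was summed per symbol, or per locus where there was none, over 11954 genes and loci. limma 3.58.1 in R 4.3.3, with trend and robust moderation, compared high minus low IMF on log2(FPKM + 1), where a fold change understates that of low genes, for the 11702 with a mean of at least 0.5 FPKM; tests were two-sided with Benjamini-Hochberg adjustment over all of them, and the fit was tested on simulated data. Shares were compared by permutation, with 100000 resamples, and by exact permutation within identifier sets. Python 3.11.15 with numpy 2.4.6, scipy 1.17.1, pandas 2.3.3 and matplotlib 3.10.9 made the summaries. TMM and upper-quartile factors were computed from the FPKM matrix. The members and all lists were chosen with earlier results of these data known.

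The text names, per complex, the 4 members with the smallest p and those with the highest and lowest mean, the forms in the shares, the 3 assembly factors with the smallest p in each direction, and up to 3 genes per other list; others, such as NDUFA4L2, COX19, COX8H and MB, were named after their values were seen, as was the split of complex I. Sums carry no test. The values of 1 member are not reported here, though counts and sums include it. Of the 71 members, 57 matched a RefSeq gene of the same symbol and chromosome on Sscrofa11.1, and the spans of 29 overlap another named gene, so that reads of neighbours may be shared. For the sums by position, transcripts without a symbol were added where at least 50% of their length lay within a member's span. FPKM is divided by transcript length, so such sums depend on which of the transcripts the reads were given to. Alternatives in scaling, pseudocount, filter, moderation, unit of summing and animals were run, and their effect is given at the end.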

Additional observations from a re-analysis of the deposited data

How the results depend on the processing

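In the limma fit 0 members passed when adjusted, while 6 of 11702 genes did, and 0 to 1 members did when 1 animal was left out, COX7A2 passing without low IMF animal 10. The count at an unadjusted p under 0.05 was 22, against 6 with TMM scaling, 6 with upper-quartile scaling and 6 with transcripts placed by position and TMM scaling, and 16 to 26 when 1 animal was left out (16 without high IMF animal 11). With 1 animal per 9 shared identifier digits, 21 animals, it was 21. The transcript count was 25, against 7 with TMM scaling. The cause was not tested. The median of each complex stayed positive in all 195 values recomputed. All 40 recomputed differences in summed FPKM moved by less than 1 SD between animals; those of complex IV with TMM scaling and within the lower-numbered set were negative, at -1.43 and -34.8 FPKM.

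For the shares, COX7A1 differed by -5.55 percentage points without high IMF animal 7 and low IMF animal 10, by -7.33 and 0.337 within the identifier sets, and by -5.73 to -2.54 when 1 animal was left out; COX6A2 differed by -9.75, by 1.78 and -21.3 within the lower-numbered and higher-numbered sets, and by -15.5 to -5.04 when 1 animal was left out.

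Among recomputed log2 fold changes of named genes, 1284 kept direction and call, 33 turned direction and 1 passed the threshold, that of COX7A2. Fits within the identifier sets are outside this tally: NDUFB9 was -0.17 and COX6A2 0.48 in the lower-numbered set, and UQCRC1 -0.072 in the higher-numbered set, where COX6A1, COX18 and NDUFAF5 turned as well. ATP5D was 0.18 with transcripts placed by position and 0.073 with TMM scaling as well. With TMM, TMM after placing, and upper-quartile scaling, ATP5G2 was -0.016, -0.016 and -0.027, COX18 -0.046, -0.046 and -0.052, COX4I2 -0.048, -0.048 and -0.058, and UQCRC1 -0.036, -0.097 and -0.047. COX4I2 was also -0.0076 with array weights and -0.043 with reference transcripts only, where COX6A2 was 0.13. NDUFAF5 was 0.0030 without high IMF animal 7 and low IMF animal 10. When 1 animal was left out, COX18 ran between -0.061 and 0.037, COX4I2 between -0.018 and 0.11, COX6A2 between -0.69 and 0.026, and NDUFAF5 between -0.057 and 0.0076.

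No paired analysis was possible because the labels number no replicates.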

Other observations

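Further respiratory chain genes of RefSeq are not named in the deposited table, and 23 of 26 were placed there by position after the values had been seen, at transcripts that overlap the gene over at least 80% of both. ATP5E, NDUFA5 and UQCRB could not be placed. All 23 had a positive log2 fold change, high minus low IMF, against 73.5% of all genes, with a median of 0.19. Of the 23, 10 had an unadjusted p under 0.05 and 0 passed when adjusted (limma), while 6.78% of all genes were higher at that unadjusted p. With TMM scaling 19 were positive, against 50% of all genes, with a median of 0.079. At an unadjusted p under 0.05 there were 2, NDUFB3 and SDHC, against 2.83% of all genes.

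NDUFB3, an accessory subunit of the membrane arm of complex I, at transcripts that the table lists under STRADB, had 70.1, 88.8 and 103 FPKM (lowest, median, highest) in high IMF animals, against 62.5, 67.4 and 83.6 FPKM in low IMF animals. The ranges overlapped, and the fold change of 0.30 (SE 0.0762, limma p = 0.000623, adjusted p = 0.233) was 0.19 with TMM scaling (p = 0.0276). SDHC, the other membrane anchor of complex II, averaged 35.7 FPKM in high and 27.1 FPKM in low IMF muscle (0.40, limma p = 0.0127). ATP5B, the beta subunit where ATP is made, averaged 295 and 259 FPKM (0.19, p = 0.104), at a transcript that the table lists under BAZ2A.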
